A study of Mus musculus with 12 samples.

Results

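Genes for taking up, storing, breaking down and sensing monoamines were followed in mouse bone marrow cultures: the serotonin transporter gene Slc6a4, the vesicular transporter genes Slc18a2 and Slc18a1, the oxidase gene Maoa and the adrenoceptor gene Adra1a. These 5 genes were listed by name for their function, with earlier results of these data known, and matched by symbol to 5 of the 41388 Ensembl genes counted in every library. Bulk RNA sequencing covered 12 libraries in 4 groups of 3, and all 4 groups came from C57BL/6 mice of the lines named ASXL2flox and ASXL2LysM. KO OC libraries carried LysM Cre and came from marrow cells grown for 5 days and then for 2 days with 2% M-CSF and RANKL at 50 ng/ml. flox OC libraries were labelled Flox and had the same culture. KO BMM libraries carried LysM Cre and had 2% M-CSF for the last 2 days with no RANKL, and flox BMM libraries were labelled Flox and had that same culture. LysM Cre acts in myeloid cells, so other cells in such a culture can keep the gene. The 12 libraries include no group with Cre and an intact Asxl2 gene, and the labels used here do not say which exons were floxed or whether replicates came from separate mice, so p-values describe the spread from library to library, and that spread may be technical.

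Monoamines, which include serotonin, dopamine, noradrenaline and adrenaline, are signalling molecules that cells recover from outside through plasma membrane carriers such as the serotonin transporter, load into vesicles through the vesicular monoamine transporters, and oxidise at the mitochondrial outer membrane through monoamine oxidases. Macrophages in fat and other tissues have been described that take up and break down noradrenaline near sympathetic nerves, and osteoclasts and their precursors respond to serotonin and to adrenergic agonists. The series asks how the transcription profiles of macrophages and osteoclasts change when Asxl2, a chromatin regulator of the Enhancer of Trithorax and Polycomb family, is deleted in myeloid cells.

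Each library held between 18489873 and 21667237 counts assigned to genes. Asxl2 measured 15.1, 12.7 and 13.4 CPM (counts scaled to a common library total, with TMM factors) in KO OC libraries, against 75.6, 73.6 and 71.0 CPM in flox OC libraries. It measured 14.9, 14.9 and 15.4 CPM in KO BMM libraries, against 95.6, 94.0 and 89.7 CPM in flox BMM libraries. The log2 fold change of KO over flox was -2.42 in OC and -2.63 in BMM. Markers checked the culture labels. The 6 macrophage markers, among them Csf1r and Adgre1, summed to between 4202 and 4309 CPM in the OC libraries and between 7659.5 and 8947 CPM in the BMM libraries. The 8 osteoclast markers summed to 183 to 195 CPM in KO OC, 393 to 416 CPM in flox OC, 91.0 to 92.0 CPM in KO BMM and 134 to 141 CPM in flox BMM libraries. Calcr, the calcitonin receptor of mature osteoclasts, had 1 count in all, so the OC libraries held osteoclast markers beside a high level of macrophage markers. In bulk RNA, fewer cells of a type and less RNA per cell cannot be told apart.

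Slc6a4 encodes the plasma membrane serotonin transporter, the target of serotonin reuptake inhibitors. Its transcript was found in every culture given RANKL and was at or near 0 in every culture without it, and among the RANKL cultures it was lower in KO. Slc6a4 and Maoa were the genes of the 5 that rose with RANKL in both genotypes, so the 250 bases before the RefSeq start of each are shown (GRCm38.p6, plus strand), with the GC box GGGCGG, a binding motif of Sp family factors, in capitals on either strand. The Slc6a4 stretch lies at chr11:76998347-76998596 and the Maoa stretch at chrX:16619448-16619697.
Slc6a4: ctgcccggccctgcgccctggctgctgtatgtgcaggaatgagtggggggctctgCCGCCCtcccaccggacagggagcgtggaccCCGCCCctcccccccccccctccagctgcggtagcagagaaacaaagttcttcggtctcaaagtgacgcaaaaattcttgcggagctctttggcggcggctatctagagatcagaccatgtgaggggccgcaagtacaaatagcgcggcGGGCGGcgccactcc
Maoa: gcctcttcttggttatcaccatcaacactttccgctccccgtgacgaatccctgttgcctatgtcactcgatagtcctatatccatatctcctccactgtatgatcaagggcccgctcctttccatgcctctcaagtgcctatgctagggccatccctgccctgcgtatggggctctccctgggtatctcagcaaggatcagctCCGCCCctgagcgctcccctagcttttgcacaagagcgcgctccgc
The Slc6a4 stretch held 3 GC boxes and was 64.8% G or C, and the Maoa stretch held 1 and was 56.8% G or C. The box was present in 32.7% of the 32851 promoters of the same length in the table. Motifs of the factors known to act downstream of RANKL were also searched on both strands. The AP-1 motif TGANTCA, present in 6.75% of promoters, had no match in either stretch, and the NFAT core GGAAA, present in 55.6%, had 2 matches in the Maoa stretch and none in the Slc6a4 stretch. These are letter matches in one window. The table held 3 of the 5 genes, the third being Slc18a2, and had no entry for Adra1a or Slc18a1. The stretch of Slc18a2, a gene not called with RANKL in either genotype, held 2 GC boxes and no AP-1 or NFAT match.

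The Slc6a4 gene spans bases 76998603 to 77032340 of chromosome 11 on the plus strand (GRCm38), with 4531 bases of annotated exon. Reads counted to its exons numbered 89, 108 and 108 in KO OC libraries, against 160, 137 and 185 in flox OC libraries. Of the 3 KO BMM libraries, 1 had a single count and the others had 0, and the 3 flox BMM libraries had 0. No KO OC library reached the lowest flox OC library. As levels these were 4.56, 5.34 and 5.42 CPM in KO OC libraries, against 7.22, 6.77 and 9.01 CPM in flox OC libraries. Slc6a4 averaged 5.11 ± 0.475 CPM in KO OC and 7.67 ± 1.19 CPM in flox OC libraries (SD, n = 3 each). The fitted log2 fold change of KO OC over flox OC was -0.58 (SE 0.117, edgeR quasi-likelihood test with Benjamini-Hochberg adjustment over 13030 genes, adjusted p = 6.43e-05). Over the alternatives tried it lay between -0.662 and -0.453, with an adjusted p of at most 0.00369.

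For RANKL the counts give bounds. In the flox cultures, 482 counts over the 3 OC libraries stood against 0 in the BMM libraries. Taking 3 counts over the group as the floor, the level was 140.1-fold higher with RANKL, and the 95% counting interval began at 113.5. In the KO cultures, 305 counts stood against 1, a ratio of 305.8 with a 95% counting interval of 54.5 to 12119. Such intervals cover counting error only. The adjusted p of the RANKL contrast was 9.52e-22 in KO and 7.19e-25 in flox libraries (edgeR quasi-likelihood test). With 1 count against 0 in BMM libraries, a difference between genotypes was not detectable there at this depth, and the difference between the RANKL effects had an adjusted p of 0.416. Slc6a4 passed the filter on low counts only through the OC libraries, so the p-values of its RANKL contrasts add no support to the counts.

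Slc6a4 is also known from mast cells, basophils and platelets, so their markers were read beside it. The 11 mast cell and basophil markers summed to 1.09 to 1.35 CPM in KO OC, 3.11 to 3.65 CPM in flox OC, 0.217 to 0.484 CPM in KO BMM and 0.227 to 0.561 CPM in flox BMM libraries. That is the same order of the OC groups as for Slc6a4. Of the 11, 1 passed the filter, Gata2, a transcription factor that other blood cells also express. Gata2 made up most of the OC sums, at a mean of 0.972 CPM in KO OC and 2.96 CPM in flox OC libraries. Tpsab1, a tryptase gene of mast cells, was below the filter and had 1, 1 and 1 counts in KO OC and 7, 5 and 2 counts in flox OC libraries and none in any BMM library, the same order as Slc6a4. Hdc and Kit had the other order, with 6 and 4 counts over the KO OC libraries and 3 each over the flox OC libraries. Cpa3, Mcpt8 and Ms4a2 each had 0 counts in KO OC and 1 in flox OC libraries. Tpsb2, Mcpt4 and Fcer1a, which encode another tryptase, a chymase and the IgE receptor alpha chain, were at 0 in all 12 libraries. The 8 megakaryocyte and platelet markers summed to 16.3 to 17.5 CPM in KO OC, 135 to 141 CPM in flox OC, 48.5 to 53.1 CPM in KO BMM and 344 to 409 CPM in flox BMM libraries. Pf4, a chemokine of platelet granules, made up most of that sum, and Gp6 was at 0 in all libraries. The sum was highest in the flox BMM libraries. Of the 7 osteoclast markers tested, 6 rose and 1 fell with RANKL in each genotype. Of all genes, 35.5% rose and 35% fell with RANKL in KO, and 37% rose and 37.8% fell in flox libraries. In KO OC against flox OC 6 fell, where 19.9% of all genes fell. In KO BMM against flox BMM 1 rose and 4 fell, where 19.3% of all genes rose and 20.6% fell. The 8 osteoclast markers summed to 91.0 to 92.0 CPM in KO BMM and 134 to 141 CPM in flox BMM libraries. What part these markers' cells had in the Slc6a4 values was not tested.

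**Figure D1:**
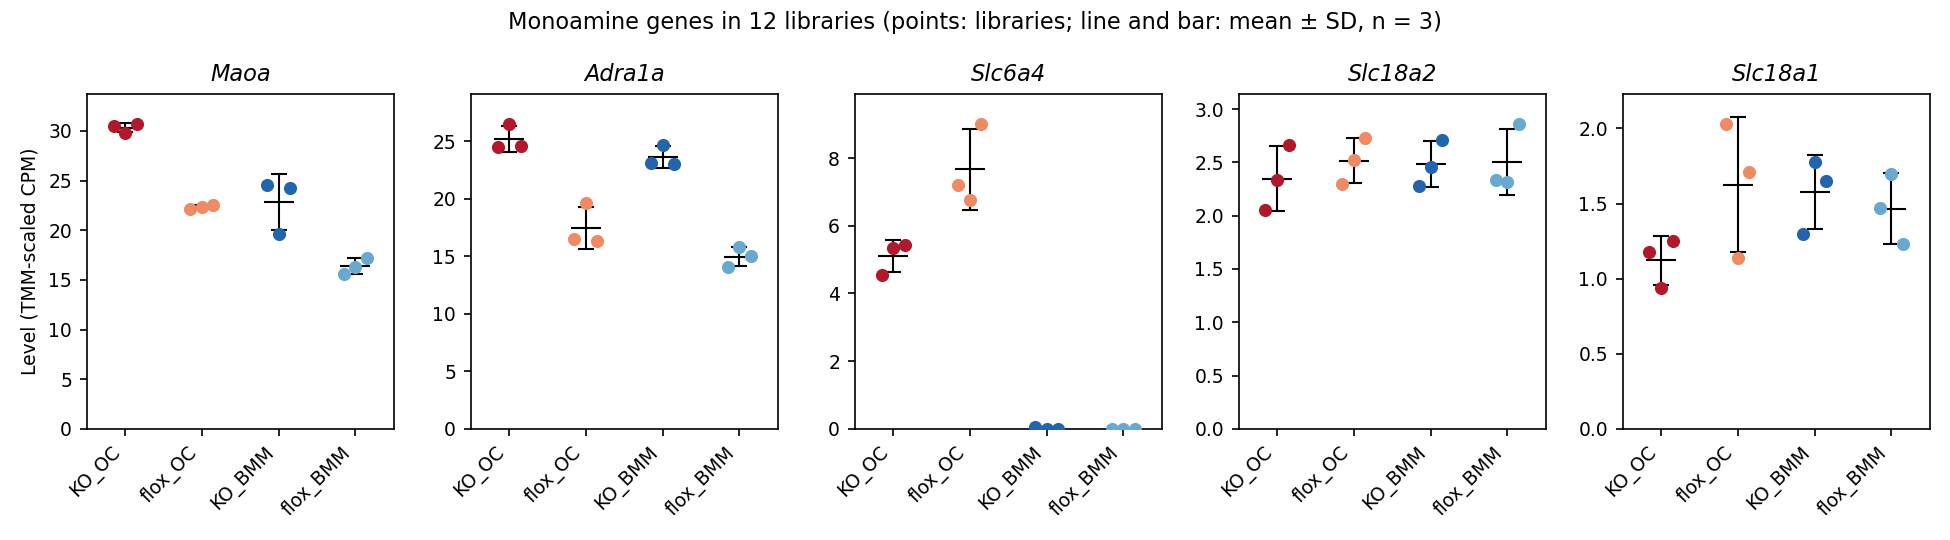
Level of each of the 5 genes in TMM-scaled CPM (vertical axes, each from 0) in the 3 libraries of the KO OC, flox OC, KO BMM and flox BMM groups; points are libraries, and the line and bar are the mean ± SD. Slc6a4 lies between 4.56 and 9.01 CPM in the 6 OC libraries and at or near 0 in the 6 BMM libraries, Maoa and Adra1a are higher in KO than in flox libraries of the same culture, and the Slc18a2 groups overlap.

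Slc18a2 encodes the vesicular monoamine transporter of neurons, mast cells and platelets, and Slc18a1 encodes its close relative of endocrine and chromaffin cells. Both transcripts were low, and neither passed the test in any contrast. The Slc18a2 gene covers bases 59260878 to 59296012 of chromosome 19 on the plus strand, and 2.6% of its exon bases are shared with the gene model Gm29261. Slc18a2 measured 2.05, 2.33 and 2.66 CPM in KO OC, 2.30, 2.52 and 2.73 CPM in flox OC, 2.28, 2.46 and 2.71 CPM in KO BMM and 2.33, 2.32 and 2.86 CPM in flox BMM libraries. All 4 groups overlapped, and their means lay between 2.34 and 2.52 CPM. The log2 fold change of KO over flox was -0.10 in OC (95% interval -0.423 to 0.228) and -0.00 in BMM (-0.336 to 0.328). The change with RANKL was -0.09 in KO (-0.415 to 0.244) and 0.01 in flox libraries (-0.320 to 0.336). At 40 to 56 counts a library, changes inside these intervals were not detectable.

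Slc18a1 covers bases 69037711 to 69089235 of chromosome 8 on the minus strand and had 19 to 45 counts a library. It measured 1.18, 0.940 and 1.25 CPM in KO OC, 2.03, 1.14 and 1.71 CPM in flox OC, 1.3, 1.78 and 1.65 CPM in KO BMM and 1.47, 1.70 and 1.23 CPM in flox BMM libraries. The KO OC libraries were below every KO BMM library and overlapped the flox OC libraries through replicate 2 of flox OC. The log2 fold change of KO OC over flox OC was -0.54 (SE 0.232, edgeR quasi-likelihood adjusted p = 0.0579). Without flox OC replicate 2 it was -0.735 with an adjusted p of 0.0127, within a range of 0.0127 to 0.339 over 12 alternatives. The RANKL change in KO libraries was -0.50 (SE 0.237, edgeR adjusted p = 0.0578), and it passed the threshold in 2 of 12 alternatives, at -0.608 and an adjusted p of 0.0329 without KO BMM replicate 1 and at -0.497 and 0.0475 in a fit of those 6 libraries alone. In flox libraries the RANKL change was 0.15 (SE 0.222, edgeR adjusted p = 0.555), and the difference between the RANKL effects was -0.64 (SE 0.325, adjusted p = 0.162). In BMM libraries KO over flox was 0.10 (SE 0.226, edgeR adjusted p = 0.756).

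Maoa encodes monoamine oxidase A, which oxidises serotonin and noradrenaline. Its level was higher in KO than in flox libraries of both cultures and higher with RANKL in both genotypes. The gene lies on the X chromosome from base 16619698 to 16687818 on the plus strand and has 4167 exon bases. Maoa measured 30.5, 29.8 and 30.7 CPM in KO OC libraries, against 22.1, 22.3 and 22.5 CPM in flox OC libraries. In KO BMM libraries it measured 24.6, 19.6 and 24.3 CPM, against 15.6, 16.3 and 17.2 CPM in flox BMM libraries. Every KO library was above every flox library of the same culture, with replicate 2 of KO BMM the lowest KO value. Maoa was 1.36-fold higher in KO OC than in flox OC (log2 fold change 0.45, SE 0.0613, edgeR quasi-likelihood adjusted p = 3.86e-08). It was 1.39-fold higher in KO BMM than in flox BMM (0.48, SE 0.0707, adjusted p = 2.17e-07, same edgeR test).

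With RANKL, Maoa was 1.33-fold higher in KO OC than in KO BMM (log2 0.41, SE 0.0616, edgeR adjusted p = 7.47e-08). It was 1.36-fold higher in flox OC than in flox BMM (0.44, SE 0.0704, edgeR adjusted p = 2.5e-07). The difference between these RANKL effects was -0.03 on the log2 scale (95% interval -0.214 to 0.154, edgeR adjusted p = 0.873). By mean level the order was KO OC (30.3 ± 0.489 CPM), KO BMM (22.9 ± 2.79 CPM), flox OC (22.3 ± 0.199 CPM) and flox BMM (16.4 ± 0.813 CPM; SD, n = 3 each), and the libraries of KO BMM and flox OC overlapped. Because Maoa is X-linked, markers of sex were read beside it: Xist had 4 counts over the 12 libraries, and the 4 Y-linked genes summed to 190.1 to 191.0 CPM in KO OC, 169.9 to 173.8 CPM in flox OC, 198.6 to 201.9 CPM in KO BMM and 189.6 to 199.9 CPM in flox BMM libraries.

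Maob, the second monoamine oxidase gene, lies 21463 bases past the end of Maoa on the minus strand, so that the genes face each other tail to tail. It was below the filter, and it is named here after its counts were seen. Reads numbered 5, 2 and 0 in KO OC libraries, against 0, 0 and 0 in flox OC libraries. In KO BMM libraries they numbered 10, 5 and 7, against 1, 2 and 2 in flox BMM libraries. The KO BMM libraries were above every flox BMM library, and the ratio of levels was 4.04 with a 95% counting interval of 1.49 to 13.6. In OC the KO level was 2.46-fold higher against a floor of 3 counts over the flox group (95% counting interval from 1.52), although 1 KO OC library had 0 counts. In an edgeR test without the low-count filter, added after the data were seen, the adjusted p over 23565 genes was 0.0178 in OC and 0.0179 in BMM. With RANKL, Maob went the other way from Maoa: the ratio of KO OC to KO BMM levels was 0.319 (95% counting interval 0.115 to 0.773), flox OC libraries had 0 counts against 5 over the flox BMM libraries, and the adjusted p without the filter was 0.0227 in KO and 0.0262 in flox libraries. The markers of stromal cells and osteoblasts summed to 42.6 to 53.0 CPM in KO OC and 143.1 to 146.5 CPM in flox OC libraries. In BMM they summed to 53.4 to 60.1 CPM in KO and 169.1 to 187.1 CPM in flox libraries. The 6 that were tested fell in KO in both cultures, where 19.9% of all genes fell in OC and 20.6% in BMM. What part these markers' cells had in the Maoa and Maob values was not tested.

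Adra1a encodes an adrenoceptor of the alpha class that couples to calcium release when noradrenaline or adrenaline binds. It was higher in KO than in flox libraries of both cultures. The gene spans bases 66635251 to 66733462 of chromosome 14 on the plus strand and has 8144 exon bases. Adra1a measured 24.5, 26.5 and 24.6 CPM in KO OC libraries, against 16.5, 19.6 and 16.3 CPM in flox OC libraries. In BMM it measured 23.1, 24.7 and 23.0 CPM in KO libraries, against 14.1, 15.8 and 15 CPM in flox libraries. The KO and flox ranges did not overlap in either culture. Adra1a was 1.45-fold higher in KO OC than in flox OC (log2 0.53, SE 0.0656, edgeR quasi-likelihood adjusted p = 2.91e-09) and 1.57-fold higher in KO BMM than in flox BMM (0.65, SE 0.0705, edgeR adjusted p = 7.72e-11).

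The RANKL changes of Adra1a were smaller. In KO libraries the log2 fold change was 0.09 (SE 0.0625, edgeR adjusted p = 0.177), and the groups overlapped. With library size as the only scaling it was 0.229 with an adjusted p of 0.0013, in a range of 0.0013 to 0.501 over 12 alternatives, where that scaling moved the median of all genes by 0.123. In flox libraries Adra1a rose by 0.22 (SE 0.0741, edgeR adjusted p = 0.00821), and every flox OC library was above every flox BMM library. Without flox OC replicate 2, the highest of its group, it was 0.127 with an adjusted p of 0.141, in a range of 1.21e-05 to 0.141. The difference between the RANKL effects was -0.12 (95% interval -0.312 to 0.0683, adjusted p = 0.417). By mean level, KO OC (25.2 ± 1.15 CPM) and KO BMM (23.6 ± 0.953 CPM) were neighbours that overlapped, and flox OC (17.5 ± 1.86 CPM) and flox BMM (15 ± 0.847 CPM; SD, n = 3 each) lay below them.

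The number of these genes called in each contrast is set against all 13030 genes tested with edgeR. In KO OC against flox OC, 2 rose (Maoa, Adra1a), 1 fell (Slc6a4) and 2 were not called, where 41.3% of all genes were called, 21.4% higher and 19.9% lower. In KO BMM against flox BMM, 2 rose and 3 were not called, where 39.9% of all genes were called, 19.3% higher and 20.6% lower. With RANKL, 2 rose in KO libraries (Slc6a4, Maoa), where 70.5% of all genes were called, 35.5% higher and 35% lower. In flox libraries 3 rose (Slc6a4, Maoa, Adra1a), where 74.8% were called, 37% higher and 37.8% lower. Slc6a4 could enter these RANKL counts only through the OC libraries, by which it passed the filter. None of the 5 was called for a difference between the RANKL effects (Slc6a4 with BMM counts at or near 0), where 21.9% of all genes were, 12.3% higher and 9.53% lower. Groups did not overlap for 3 of the 5 genes in KO OC against flox OC (51.3% of all genes), 2 in KO BMM against flox BMM (46.6%), and 3 with RANKL in KO (73.4%) and in flox libraries (75.2%). With so few genes and such shares of all genes, the calls are statements about single genes and not about the set. The contrasts share groups, so they are not independent of each other.

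**Figure D2:**
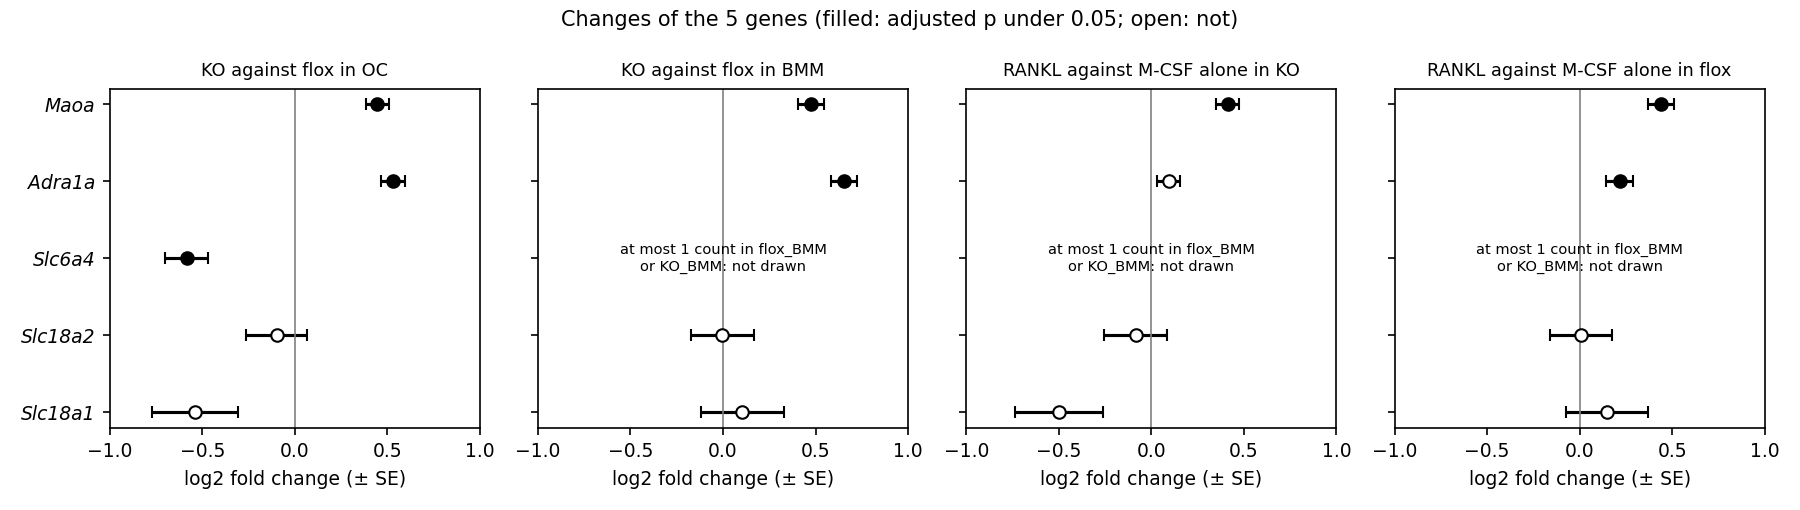
Log2 fold changes ± SE (horizontal axes) of the 5 genes in the 4 contrasts of KO with flox and of RANKL with M-CSF alone; filled points had an adjusted p under 0.05 and open points did not. Maoa lies between 0.41 and 0.48 in all 4 panels, Adra1a lies to the right of 0 in both genotype contrasts, and the Slc6a4 point at -0.58 is drawn in OC only, since its BMM counts were at most 1.

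Compared per kilobase of exon, the levels had an order that did not depend on genotype in the OC libraries. In KO OC libraries Maoa averaged 7.28 CPM per kb, Adra1a 3.09, Slc6a4 1.13, Slc18a2 0.616 and Slc18a1 0.208 CPM per kb. In flox OC libraries the same genes averaged 5.34, 2.14, 1.69, 0.662 and 0.301 CPM per kb. Neighbours in this order did not overlap between libraries, although the lowest Adra1a library in flox OC (2.00 CPM per kb) was next to the highest Slc6a4 library (1.99 CPM per kb). In KO BMM libraries Maoa averaged 5.48, Adra1a 2.90, Slc18a2 0.653 and Slc18a1 0.292 CPM per kb, with Slc6a4 last. In flox BMM libraries the averages were 3.93 for Maoa, 1.84 for Adra1a, 0.658 for Slc18a2 and 0.272 CPM per kb for Slc18a1, again with Slc6a4 last.

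Around these 5 genes, 47 further genes of monoamine synthesis, transport, breakdown and reception were looked up, and 9 passed the filter on low counts. The synthesis enzymes were largely missing: Th, the tyrosine hydroxylase of catecholamine synthesis, Dbh and Pnmt, which make noradrenaline and adrenaline, and Tph1, the peripheral tryptophan hydroxylase, had 0 counts in all 12 libraries. The same held for Slc6a2 and Slc6a3, the noradrenaline and dopamine transporters, and for the organic cation transporters Slc22a2 and Slc22a3. In all, 21 of the 47 had 0 counts throughout and 33 had 3 or fewer counts in every library. Markers of sympathetic neurons and chromaffin cells, 9 in number, summed to at most 1.31 CPM in any library, and Th, Dbh, Chga and Snap25 were at 0 in all.

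In KO OC against flox OC, 1 of the 9 tested pathway genes rose, 3 fell and 5 were not called (median log2 fold change 0.02, all genes 0.01). In KO BMM against flox BMM none rose, 4 fell and 5 were not called (median -0.11, all genes 0.00). With RANKL, 2 rose and 4 fell in KO libraries (median -0.29, all genes 0.00), and none rose and 4 fell in flox libraries (median -0.18, all genes -0.00). The shares of all genes called in these contrasts are those given above, and nothing particular to the list is drawn from 9 genes.

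The serotonin receptor genes Htr2b and Htr2a were lower in KO in both cultures. Htr2b, a serotonin receptor that couples to Gq, measured 13.7 ± 1.01 CPM in KO OC and 16.1 ± 0.450 CPM in flox OC libraries, and 43.0 ± 0.734 CPM in KO BMM and 59.3 ± 0.406 CPM in flox BMM libraries (SD, n = 3 each). It was lower in KO in OC (log2 -0.23, edgeR adjusted p = 0.00465) and in BMM (-0.47, adjusted p = 1.78e-12), and lower with RANKL in KO (-1.65, adjusted p = 9.64e-30) and in flox libraries (-1.88, adjusted p = 7.69e-34). Of its exon bases, 11.8% are shared with Psmd1, and strand was not used in counting.

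Htr2a, another Gq-coupled serotonin receptor, had 2, 0 and 2 counts in KO OC libraries, against 12, 18 and 13 in flox OC libraries. It had 1, 1 and 3 counts in KO BMM libraries, against 10, 9 and 4 in flox BMM libraries. Every KO library was below every flox library of its culture. The ratio of KO to flox levels was 0.0981 in OC (95% counting interval 0.0256 to 0.27) and 0.199 in BMM (0.0592 to 0.536), with edgeR adjusted p of 5.83e-06 and 0.00299. Htr2a passed the filter only through the flox OC libraries, where it was high. The p-value of its OC contrast therefore adds no support to the counts. Slc6a4 and Htr2b were each lower in KO OC by their own test, and Adra1a was higher. Htr1f, Adra1b, Htr1b and Adra2a, receptor genes below the filter, were not called in KO OC against flox OC without the filter. Their log2 fold changes were 0.49, 0.08, -0.16 and 0.25, on few counts. Htr1f had 28 counts in KO OC against 21 in flox OC, and Adra1b had 11 against 11. In the edgeR test without the filter, Htr1b had an adjusted p of 0.918 and Adra2a of 0.845 in this contrast.

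Among the enzymes, Aldh2, the mitochondrial dehydrogenase that clears aldehydes made by monoamine oxidases and from ethanol, had the highest level per length of the genes of monoamine handling drawn in the plot of pathway levels. Aldh2 measured 559 ± 3.38 CPM in KO OC and 461 ± 8.02 CPM in flox OC libraries, and 1075 ± 14.9 CPM in KO BMM and 1044 ± 11.8 CPM in flox BMM libraries (SD, n = 3 each). It rose in KO OC (log2 0.28, edgeR adjusted p = 1.17e-12), had 0.04 in KO BMM (adjusted p = 0.183), and fell with RANKL by 0.94 in KO and by 1.18 in flox libraries (adjusted p = 6.18e-34 and 5.51e-38). Sult1a1, a sulfotransferase of phenols, fell with RANKL by 1.83 in KO and by 2.59 in flox libraries (edgeR adjusted p = 7.75e-07 and 3.91e-08). These changes rest on few counts, with 40 over KO OC and 21 over flox OC libraries, against 143 over KO BMM and 112 over flox BMM libraries. Sult1a1 shares 4.05% of its exon bases with Sgf29. Gch1, which starts the synthesis of the hydroxylases' cofactor tetrahydrobiopterin, rose with RANKL in KO libraries (0.18, edgeR adjusted p = 0.00416). Its fall in KO BMM (-0.15, adjusted p = 0.0327) was lost in 8 of 12 alternatives. Akr1b3, an aldose reductase, was lower in KO OC (-0.14, edgeR adjusted p = 0.0393), a call lost in 7 of 12 alternatives. Comtd1, named for its methyltransferase domain, rose with RANKL in KO libraries (0.26, edgeR adjusted p = 0.0101), lost its call without KO BMM replicate 1 (adjusted p = 0.0811, the highest of the 12 alternatives, whose lowest was 0.000138), and shares 37.2% of its exon bases with Vdac2 and A430057M04Rik. Rnls, renalase, passed in no contrast.

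**Figure D3:**
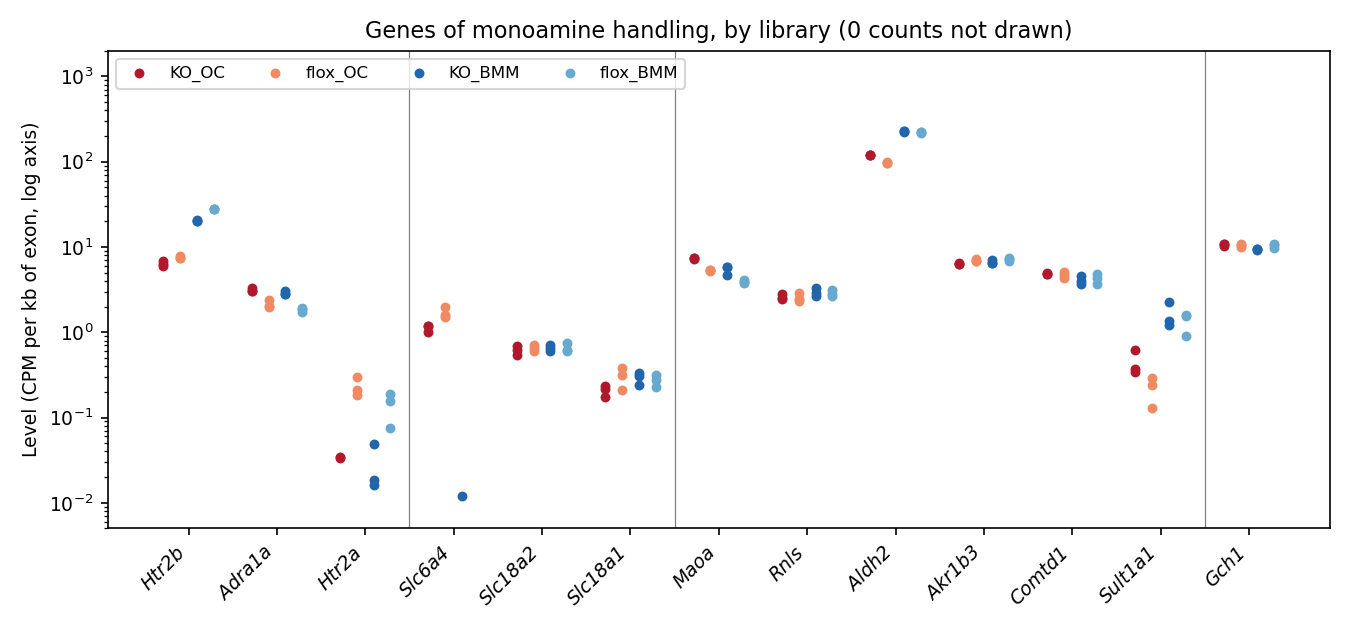
Level in CPM per kilobase of exon (vertical log axis) of 13 genes that passed the filter, one point per library, with KO OC, flox OC, KO BMM and flox BMM from left to right in each gene; vertical lines part receptors, transporters, enzymes of breakdown and the synthesis gene Gch1, and libraries with 0 counts are not drawn. Aldh2 is the highest, Htr2b is higher in BMM than in OC libraries, and Slc6a4 appears in BMM as a single point.

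Some receptor genes below the filter had reads, and they are named after their counts were seen. Htr1f, a Gi-coupled serotonin receptor, had 13, 9 and 6 counts in KO OC and 6, 10 and 5 in flox OC libraries, and 0, 0 and 0 in KO BMM and 0, 3 and 2 in flox BMM libraries. Its level with RANKL was 9.36-fold higher in KO libraries against the floor of 3 counts over the group (95% counting interval from 7.12). In flox libraries it was 3.66-fold higher (95% counting interval 1.34 to 12.4). Adra1b, a relative of Adra1a, had 1, 5 and 5 counts in KO OC and 2, 6 and 3 in flox OC libraries and none in any BMM library. Against the same floor it was 3.68-fold higher with RANKL in KO and 3.2-fold higher in flox libraries (95% counting intervals from 2.52 and 2.19). Without the low-count filter the edgeR adjusted p of the RANKL contrast was 2.52e-08 in KO and 0.017 in flox libraries for Htr1f, and 0.00151 in KO and 0.00253 in flox libraries for Adra1b. In the same test Htr1f was lower in KO BMM than in flox BMM (adjusted p = 0.0496), on 0 counts against 5. Htr1b, another Gi-coupled serotonin receptor, had 3, 6 and 7 counts in KO OC and 4, 8 and 7 in flox OC libraries, and 5, 0 and 3 in KO BMM and 5, 10 and 9 in flox BMM libraries. Without the filter Htr1b was lower in KO BMM than in flox BMM (edgeR adjusted p = 0.0181), had an adjusted p of 0.918 in KO OC against flox OC, and shares 18% of its exon bases with D430036J16Rik. Adra2a, a Gi-coupled adrenoceptor of the alpha class, had 6, 7 and 5 counts in KO OC and 2, 10 and 4 in flox OC libraries, and 4, 2 and 11 in KO BMM and 8, 6 and 7 in flox BMM libraries. All 4 Adra2a groups overlapped, and its lowest adjusted p without the filter was 0.399, for RANKL in flox libraries.

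The genes whose pattern was most like each of the 5 were found as the 3 highest Pearson correlations of log2(CPM + 0.5) over the 12 libraries, among 10805 named genes with a mean of at least 1 CPM. The 12 points fall into 4 groups and share their libraries, so r is a description. For Maoa they were C2cd5 (r = 0.97), Isoc1 (0.968) and Slfn3 (0.966), and 180 genes (1.67% of the candidates) had r of at least 0.9. C2cd5, which encodes a protein of insulin-stimulated glucose transporter traffic, measured 43.8 ± 1.72 CPM in KO OC, 34.5 ± 0.997 CPM in flox OC, 36.5 ± 1.4 CPM in KO BMM and 28.2 ± 2.16 CPM in flox BMM libraries, and its group means followed Maoa's order of KO OC, KO BMM, flox OC and flox BMM. For Adra1a they were Cdkn3 (r = 0.979), Lrfn4 (0.978) and Cep128 (0.974), with 103 genes (0.953%) at 0.9 or more. Cdkn3, a phosphatase that acts on cyclin-dependent kinases, measured 21.0 ± 1.15 CPM in KO OC and 12 ± 0.560 CPM in flox OC libraries, and 20.5 ± 1.19 CPM in KO BMM and 9.11 ± 1.46 CPM in flox BMM libraries (SD, n = 3 each).

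For Slc6a4 the most similar were Npm1 (r = 0.999), Pkd1l1 (0.999) and Prpf31 (0.998), and 2279 genes (21.1%) had r of at least 0.9. Npm1, the nucleolar protein nucleophosmin, measured 285.0 ± 8.70 CPM in KO OC and 319.5 ± 10.4 CPM in flox OC libraries, and 116.0 ± 0.956 CPM in KO BMM and 119.2 ± 0.127 CPM in flox BMM libraries. Pkd1l1, a polycystin family gene, resembled Slc6a4 in being near 0 without RANKL, at 1.91 ± 0.242 CPM in KO OC and 2.61 ± 0.254 CPM in flox OC libraries. For Slc18a1 the highest were Tfip11 (r = 0.793), Lcmt2 (0.793) and C77080 (0.791), and for Slc18a2 Neu3 (0.808), Gprasp1 (0.757) and Ehbp1 (0.741), with no gene at 0.9 for either.

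**Figure D4:**
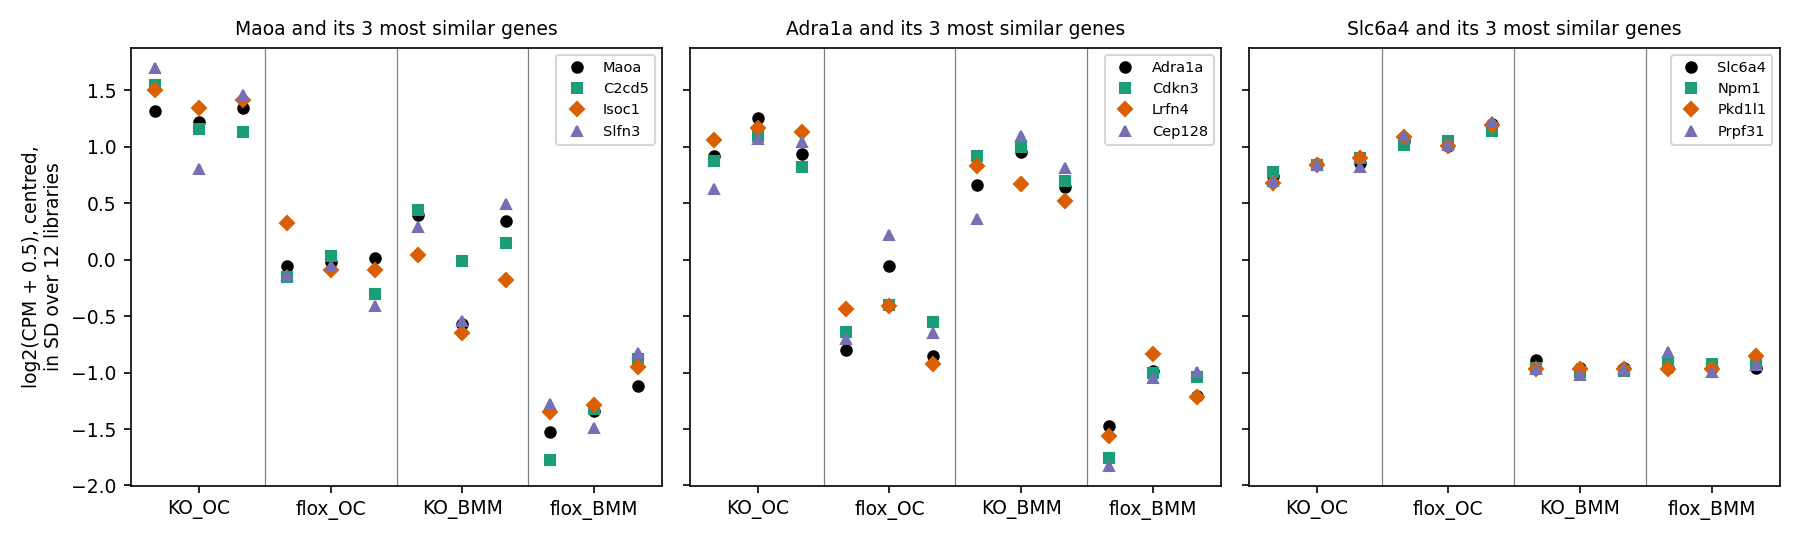
Log2(CPM + 0.5), centred and divided by its SD over the 12 libraries (vertical axis), for Maoa, Adra1a and Slc6a4 and the 3 genes most like each; libraries stand in the order KO OC, flox OC, KO BMM and flox BMM along the horizontal axis. Maoa and its neighbours are highest in KO OC and lowest in flox BMM, Adra1a and its neighbours part KO from flox, and Slc6a4 and its neighbours part OC from BMM with flox OC highest.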

How the data were processed

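RNA from the cultures was captured with oligo-dT, per the labels' protocols. The deposited files hold raw counts per gene: per the submitters' processing notes the authors used STAR 2.0.4b with GRCm38, then featureCounts, whose version was 1.4.5-p1 per the file headers, on exons of Ensembl release 76 without using strand. Files were joined by Ensembl gene ID, and 40254 of 41388 IDs had a symbol in the reference tables; the rest held 0.136% of counts. Counts were tested as deposited with edgeR 4.0.16 (R 4.3.3; filterByExpr by group, TMM, robust quasi-likelihood F test, 4 group means over all 12 libraries, Benjamini-Hochberg over 13030 genes, threshold 0.05). CPM were taken over the library total times its TMM factor, and the SE of a log2 fold change is its size divided by the root of F. Groups came from sample titles, 3 libraries each. Intervals are 95% and cover counting error or library spread only. The floor is 3 counts. Replicates of a group differed by more than sampling noise (chi-square per degree of freedom 1.25 to 5.43). Alternatives were library size alone, DESeq2 1.42.0 and its size factors, no low-count filter, a replicate block, only the libraries compared, and each library left out. Promoter letters are RefSeq's (GRCm38.p6).

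The members and lists were chosen with earlier results of these data known. Named genes are the 5 members, Asxl2, every gene of the pathway list that passed the filter (some are not reported here), and the 3 genes most like each member; others are named as chosen after their values were seen. Marker lists covered macrophages, osteoclasts, mast cells and basophils, megakaryocytes, stromal cells, sympathetic neurons, endothelium and sex. The 4 endothelial markers summed to 13.6 to 15.1 CPM in KO OC, 24.0 to 24.7 CPM in flox OC, 24.1 to 26.1 CPM in KO BMM and 35.1 to 39.8 CPM in flox BMM libraries.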

Additional observations from a re-analysis of the deposited data

Results flagged for a closer look

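None of the 5 monoamine genes met a criterion for a closer look. Among the other genes named, the RANKL effect in KO libraries differed from that in flox libraries by a test of the difference itself (edgeR quasi-likelihood interaction, adjusted p under 0.05) for 6. The difference, KO minus flox on the log2 scale, was 0.24 for Aldh2 (adjusted p = 1.46e-06) and 0.23 for Htr2b (adjusted p = 0.0336), both of which fell less with RANKL in KO libraries. It was -0.36 for Cdkn3, -0.29 for Lcmt2, -0.47 for C77080 and -0.13 for Npm1. Of all genes tested, 21.9% were called for this difference. Over 17 alternatives the calls of Aldh2 and C77080 held throughout, while that of Htr2b was lost in 10, of Lcmt2 in 9, of Npm1 in 7 and of Cdkn3 in 3.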

How the results depend on the processing

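The genotype calls of Maoa and Adra1a in both cultures, the Slc6a4 call in OC and the RANKL calls of Maoa and Slc6a4 kept direction and side of the threshold under every alternative tried. Slc6a4 passed the filter only through the OC libraries, where it was high. Of 325 re-computed member changes, 320 kept their side of the threshold, and 5 did not, each of low-count Slc18a1 or of the small RANKL changes of Adra1a. None of the 120 that belong to a called change turned sign, and 15 of the other 205 did, all of them Slc18a2, Slc18a1 or the difference of Maoa's RANKL effects. Scaling by library size alone gave 0.229 for Adra1a with RANKL in KO libraries, and a fit of the 6 libraries compared gave -0.497 for Slc18a1 with RANKL in KO libraries. Leaving out 1 library gave -0.608 to -0.382 for Slc18a1 with RANKL in KO, -0.735 to -0.339 for Slc18a1 in KO OC against flox OC, and 0.127 to 0.262 for Adra1a with RANKL in flox libraries. Library size alone turned the sign of Tfip11 with RANKL in KO (0.0323) and Akr1b3 with RANKL in flox libraries (0.127); it moves the median of all genes by 0.123 with RANKL in KO and by 0.153 in flox libraries. With it, 3334 genes were called higher and 2228 lower in KO BMM against flox BMM (main 2513 and 2690), 5970 and 3431 with RANKL in KO (4627 and 4555), 6320 and 3737 with RANKL in flox (4822 and 4925), and 1312 and 1716 for the difference of RANKL effects (1607 and 1242). Of 1625 changes of other named genes, 29 gained a call without turning sign and 81 lost one; 51 turned sign, 50 of them changes that were not called to begin with. Of 40 re-computed group levels 5 moved by more than 1 SD, and of 210 likeness values 15 moved by more than 0.05; leaving libraries out of the likeness was chosen after seeing the data. The labels do not say whether replicate numbers pair the libraries. Same-numbered deviations from group means correlated between -0.0418 and 0.0431, which cannot show whether they do. A replicate block gave 2486 higher and 2664 lower genes in KO BMM and 2766 and 2566 in KO OC, and changed no call of the 5 genes. At 19 to 56 counts a library, depth limits Slc18a1 and Slc18a2.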
